A study of Homo sapiens with 24 samples.

Results

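Doxycycline (Dox) alone was examined in parental A375 cells, a human melanoma line with an activated BRAF kinase. The 6 libraries described here were those labelled as parental A375 cells with Dox (3 libraries) or without Dox (noDox, 3 libraries), out of 24 libraries in the series. Dox was given at 1 μg/ml for 72 hours, and all cells were arrested at the boundary of G1 and S phase by a double thymidine block during that time. The labels and the study's methods name parental cells, which carry no shRNA construct, so that Dox had no transgene to switch on. A figure legend of the study instead names cells with a scrambled shRNA as the controls of the expression data. The study's methods describe the 3 libraries of each group as biological replicates, and same-numbered libraries were set against each other as 3 pairs. For comparison, A375 cells carrying a Dox-inducible shRNA against MCM7 were taken (shMCM7 cells, 6 libraries). Parental cells of the lung cancer line A549 were taken too (6 libraries). By their labels, both received the same Dox dose for the same time or none. In the shMCM7 cells, Dox and the knock-down of MCM7 cannot be told apart.

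Dox is a tetracycline antibiotic and the usual inducer of Tet-regulated transgenes. Tetracyclines bind bacterial ribosomes, and they also slow translation on the related ribosomes of mitochondria. They bind divalent metal ions and inhibit matrix metalloproteinases. Stress in the mitochondria, the endoplasmic reticulum or the amino acid supply can lead to phosphorylation of the initiation factor eIF2, which favours translation of the transcription factor ATF4. ATF4 switches on genes for the synthesis of serine, proline and asparagine, for amino acid transporters and for tRNA charging. This programme is called the integrated stress response.

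The changes with Dox were few and small. With same-numbered libraries as pairs, 44 of 15993 genes tested rose (0.275%) and 13 fell (0.0813%) at a false discovery rate (FDR) under 0.05 by edgeR's quasi-likelihood test. The genes that rose did so by 1.16-fold to 2.24-fold, with a median of 1.34-fold. Of these, 12 (0.075% of the genes tested) rose by at least 1.5-fold with p under 0.01, and 0 fell by that much. The 57 genes moved in 1 direction in all 3 pairs, and in 46 of them (37 higher and 9 lower) the 3 Dox libraries did not overlap the 3 noDox libraries. Over all genes tested, 6.62% were higher and 6.36% were lower without overlap. The 57 genes were chosen by their change in these same libraries, so their shared direction and separation were to be foreseen and are no support. Without the pairing, 0 genes passed in either direction by edgeR, while 635 genes were higher (3.97%) and 486 lower (3.04%) at an unadjusted p under 0.05. In that fit of the same libraries, 55 of the 57 genes had an unadjusted p under 0.05, which is no separate support. The smallest FDR among them was 0.407. Below, rose and fell are used for genes at an FDR under 0.05 with the pairs, and all of these calls rest on the pairing. With all 12 A375 libraries in one fit with 6 pairs, EIF5AL1 alone passed, and without pair 3, 10 of the 57 genes passed. Levels are counts scaled to library size (CPM) with TMM factors, which correct for differences in library composition. The standard error (SE) belongs to the log2 fold change, and positions are those of GENCODE 29 (GRCh38).

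**Figure D1:**
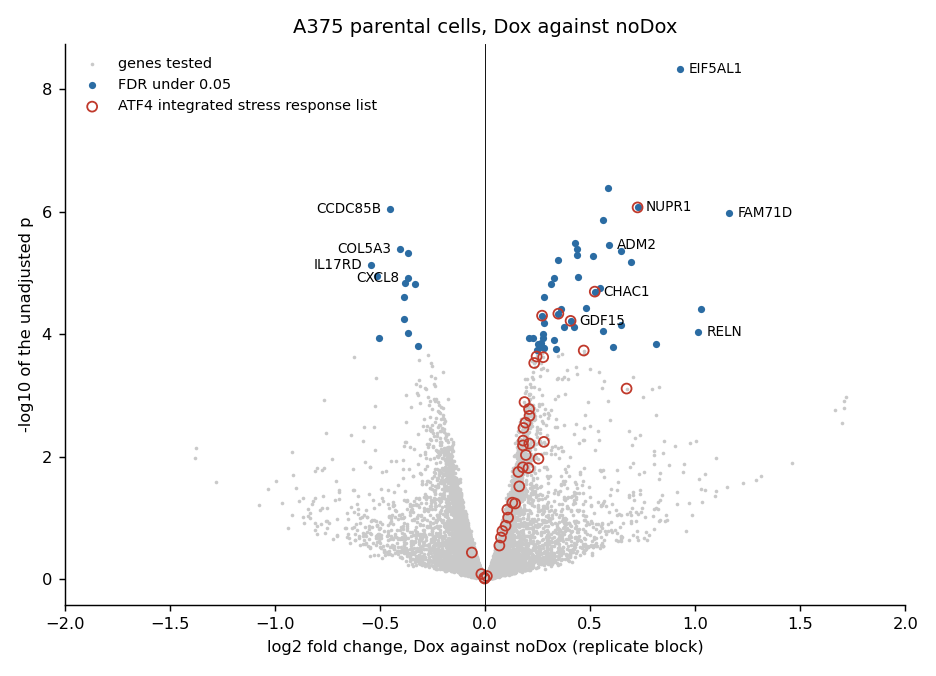
Change with Dox in A375 parental cells. The x axis gives the log2 fold change of Dox against noDox and the y axis the −log10 of the unadjusted p, from the fit with 3 pairs. Each point is 1 of 15993 genes, of which 1 lies outside the plotted range. Blue points passed an FDR of 0.05 (44 to the right of 0 and 13 to the left), and red rings mark the 38 tested members of the ATF4 list, 34 of which lie above 0.

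The 6 libraries held 146656792 to 255897834 counts, so that 3 counts amounted to 0.0117 to 0.0205 CPM (a limit for counting error only). The melanoma identity of the cells was checked with 7 markers. The neural crest factor SOX10 stood at 586 to 677 CPM and MITF at 26.7 to 34.2 CPM in all 6 libraries, while the pigment genes MLANA (0 counts) and TYR (at most 0.00855 CPM) were at or near 0. MCM7 lay at 354 to 369 CPM with Dox and at 342 to 353 CPM without (log2 fold change 0.04, SE 0.0524, FDR 0.842). Leukocyte markers summed to at most 0.132 CPM. The sum of 6 fibroblast markers was 28.99 to 44.98 CPM with Dox and 30.04 to 32.11 CPM without, and the highest value came from Dox replicate 3.

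The genes that rose with Dox included 5 of the 38 tested members of the ATF4 list (39 listed, FGF21 was filtered out), and 0 of the list fell. A further 20 members were higher at an unadjusted p under 0.05, which makes 25 of 38, against 5.31% of all genes tested, and 0 were lower at that level, against 4.08%. This list and those below were chosen with earlier results of these data known, so their counts are a description and no independent test. Without the pairing, 16 of 38 members were higher at an unadjusted p under 0.05, against 3.97% of all genes in that fit. The median log2 fold change of the list was 0.19, against 0.00 over all genes tested. The 5 genes that rose were NUPR1, CHAC1, PYCR1, SLC1A5 and GDF15. By the Wald test of the DESeq2 package with the pairs, NUPR1, CHAC1 and GDF15 did not pass.

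To show the regulatory sequence these genes are known for, the promoters in RefSeq (GRCh38.p14, 250 bases before to 50 after the start) were searched on both strands for TGATGNAA, the core of the element that ATF4 binds together with C/EBP factors. Of the 39 genes, 32 had a promoter in the table, and 12 of these (37.5%) held a match in at least 1 promoter, against 4.46% of all 27305 genes. Counted by promoter, 12 of 50 (24.0%) held a match, against 3.62% of all 35116. The 4 promoters below are those of CHAC1 and SLC1A5, which rose and held a match, of ASNS, a classical target with a match, and of GDF15, which rose and held none. Capitals mark the match, which in CHAC1 lies on the other strand.
CHAC1 (chr15:40953221-40953520, + strand): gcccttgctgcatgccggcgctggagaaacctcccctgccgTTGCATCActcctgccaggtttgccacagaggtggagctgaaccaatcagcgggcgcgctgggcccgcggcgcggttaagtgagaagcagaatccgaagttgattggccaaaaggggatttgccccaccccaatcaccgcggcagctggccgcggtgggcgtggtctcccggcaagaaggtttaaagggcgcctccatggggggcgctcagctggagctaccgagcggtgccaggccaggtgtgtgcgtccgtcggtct
SLC1A5 (chr19:46784765-46785064, − strand): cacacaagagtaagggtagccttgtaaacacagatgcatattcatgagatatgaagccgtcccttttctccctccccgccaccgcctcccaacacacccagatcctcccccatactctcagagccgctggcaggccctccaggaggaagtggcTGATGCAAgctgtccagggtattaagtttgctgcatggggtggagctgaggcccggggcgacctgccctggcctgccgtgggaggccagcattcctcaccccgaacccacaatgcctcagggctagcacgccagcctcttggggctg
ASNS (chr7:97872359-97872658, − strand): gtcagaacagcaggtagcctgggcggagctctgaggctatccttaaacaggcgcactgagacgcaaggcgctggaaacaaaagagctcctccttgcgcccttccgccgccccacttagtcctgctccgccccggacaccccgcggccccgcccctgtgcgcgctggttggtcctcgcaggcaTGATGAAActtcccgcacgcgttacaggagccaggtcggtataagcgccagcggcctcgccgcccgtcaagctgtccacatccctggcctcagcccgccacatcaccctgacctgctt
GDF15 (chr19:18385908-18386207, + strand): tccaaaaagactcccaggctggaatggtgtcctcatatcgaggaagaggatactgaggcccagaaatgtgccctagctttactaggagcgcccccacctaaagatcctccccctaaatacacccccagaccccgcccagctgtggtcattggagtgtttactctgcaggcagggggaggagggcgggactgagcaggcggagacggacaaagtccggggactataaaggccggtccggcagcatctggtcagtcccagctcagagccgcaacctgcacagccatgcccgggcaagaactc
In CHAC1 the match lay 202 to 209 bases before the start, in SLC1A5 90 to 97 bases before the start of 1 of its 3 promoters, and in ASNS 61 to 68 bases before it. Among the members with a promoter and a test, the 11 with a match had a median log2 fold change of 0.11 and the 20 without had a median of 0.18. Of these, 5 and 14 were higher at an unadjusted p under 0.05.

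NUPR1 (ENSG00000176046, chromosome 16 from 28532708 to 28539174), a small stress-induced chromatin protein, had 14.4, 12.9 and 19.2 CPM in Dox replicates 1 to 3 and 9.08, 10.7 and 8.09 CPM in noDox replicates 1 to 3. All 3 Dox libraries were above all 3 noDox libraries, and the gene rose 1.65-fold (log2 0.73, SE 0.11, FDR 0.00335).

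CHAC1 (ENSG00000128965, chromosome 15 from 40952962 to 40956519), which degrades glutathione, had 58.7, 47.6 and 44.9 CPM with Dox and 50, 38.7 and 21.7 CPM without. Each Dox library was above its own noDox library, but the groups overlapped, and the third noDox library was far below the other two. CHAC1 rose 1.44-fold (log2 0.52, SE 0.0983, FDR 0.0124), with an unadjusted p of 0.0645 without the pairing.

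PYCR1, the last enzyme of proline synthesis, had 88.2, 91.3 and 98.0 CPM with Dox and 80.0, 73.9 and 64.7 CPM without, and it rose 1.27-fold (log2 0.35, SE 0.07, FDR 0.0231). SLC1A5, a glutamine and neutral amino acid transporter, had 491, 459 and 454 CPM with Dox and 422, 399 and 346 CPM without, and it rose 1.21-fold (log2 0.27, SE 0.0548, FDR 0.0242). In both genes the groups did not overlap. PYCR1 shares exon positions with a gene on each strand and SLC1A5 with AC008622.2 on the other strand. The strand setting of the counting is not given in the sources used here.

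GDF15 (ENSG00000130513, chromosome 19 from 18374731 to 18389176), a secreted stress hormone that is also a p53 target, had 56.97, 67.0 and 88.8 CPM with Dox and 48.8, 58.7 and 50.8 CPM without. Dox replicate 1 lay below noDox replicate 2, so the groups overlapped. GDF15 rose 1.33-fold (log2 0.41, SE 0.0835, FDR 0.0277). Of the other p53 targets tested (29 with GDF15), 0 passed.

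ADM2, ASS1, SLC6A9 and PCK2, which are not on the list, also rose. ADM2 (ENSG00000128165, chromosome 22 from 50481556 to 50486440), a peptide hormone of the calcitonin family, had 22.8, 20.03 and 23.3 CPM with Dox and 16.7, 16.7 and 11.1 CPM without, and it rose 1.504-fold (log2 0.59, SE 0.0976, FDR 0.00614). ASS1, an enzyme of arginine synthesis, had 1.64, 1.39 and 2.12 CPM with Dox and 0.893, 1.22 and 1.24 CPM without, and it rose 1.53-fold (log2 0.61, SE 0.136, FDR 0.0475). In both genes, all Dox libraries lay above all noDox libraries.

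The glycine transporter SLC6A9 and the mitochondrial enzyme PCK2, which makes phosphoenolpyruvate, were picked out after their values were seen. SLC6A9 had 54.8, 50.6 and 51.0 CPM with Dox and 41.4, 43.6 and 31.5 CPM without, and it rose 1.354-fold (log2 0.44, SE 0.0733, FDR 0.00614). PCK2 had 55.4, 52.3 and 58.6 CPM with Dox and 46.2, 47.1 and 35.5 CPM without, and it rose 1.299-fold (log2 0.38, SE 0.0791, FDR 0.0317). Again the groups did not overlap, and noDox replicate 3 was the lowest library for both genes. SLC6A9 shares exon positions with CCDC24 on the other strand.

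Several members lay just beyond the threshold. PHGDH, the first enzyme of serine synthesis, had 376, 368 and 399 CPM with Dox and 321, 336 and 307 CPM without (log2 0.25, FDR 0.0562). SHMT2, which passes a carbon unit from serine to folate in mitochondria, had 433, 414 and 444 CPM with Dox and 381, 371 and 346 CPM without (log2 0.23, FDR 0.0641). The mitochondrial folate enzyme MTHFD2 was at log2 0.28 (FDR 0.0562), and CBS, which joins serine to homocysteine, at log2 0.47 (FDR 0.0509). In these 4 genes too, all Dox libraries lay above all noDox libraries. ATF4 itself had 401, 391 and 407 CPM with Dox and 376, 358 and 317 CPM without (log2 0.19, SE 0.0576, FDR 0.196).

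The list did not move equally in the 3 pairs. The median log2 ratio of its members was 0.17 in pair 1, 0.04 in pair 2 and 0.32 in pair 3, while that of all genes was 0.00 in each pair. Of the 38 members, 19 were higher in all 3 pairs, against 2426 of all 15993 genes. ASNS, which makes asparagine, had log2 ratios of 0.31, −0.17 and 0.70 in pairs 1 to 3, and its call missed the threshold (FDR 0.265). Without pair 3, 1 member of the list passed, and without pairs 1 and 2 in turn, 21 and 19 passed. Over all genes, 15 rose without pair 3, 614 without pair 1 and 81 without pair 2, so the counts of members follow fits of unlike size. Without pair 3 the log2 fold changes were 0.47 for NUPR1, 0.27 for CHAC1, 0.23 for PYCR1 and 0.21 for GDF15, and NUPR1 was the member that passed. Outside the list, ADM2 was then at 0.36 and PCK2 at 0.21, and neither passed. The median of the list was 0.11 without pair 3, and it was 0.07 without noDox replicate 3 alone and no pairing. Among the members that did not pass were ATF3 (log2 −0.06), DDIT4 (0.01) and ALDH18A1 (0.00), with FDR values of 0.823, 0.981 and 0.996.

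**Figure D2:**
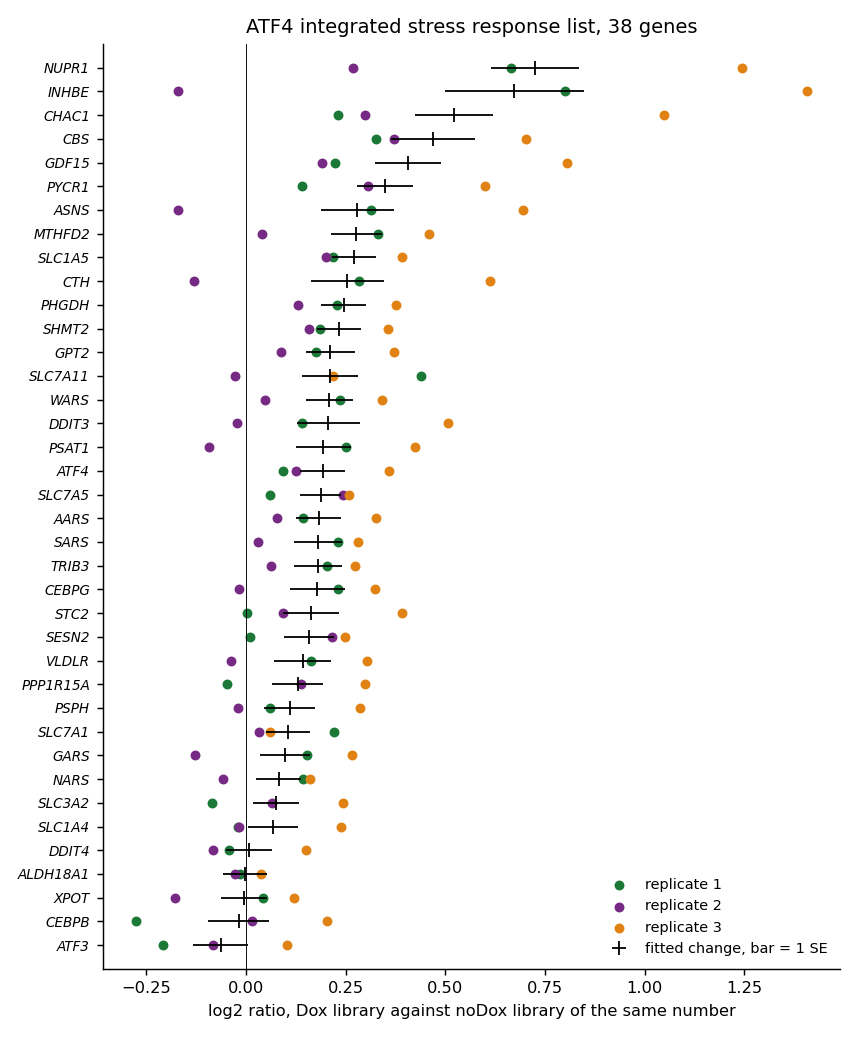
The 38 tested members of the ATF4 list, ordered by change. The x axis gives the log2 ratio of the Dox library to the noDox library of the same replicate number, with 1 colour for each of the 3 replicates, and black bars give the fitted log2 fold change with 1 SE. Replicate 3 gives the highest ratio for most members, and the medians are 0.17, 0.04 and 0.32 in replicates 1 to 3.

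The GC content of genes was related to the ratios within the pairs, with a correlation across genes of −0.24 in pair 1, 0.38 in pair 2 and 0.13 in pair 3 (genes are not independent replicates). With offsets that take out this relation in each library, 152 genes rose and 81 fell (44 and 13 with the main scaling), so that 65.2% of the genes that passed were higher, against 77.2%. The ATF4 list then had 6 members that rose and a median of 0.17. CHAC1 (FDR 0.0561), GDF15 (0.0693), PCK2 (0.0757), ASS1 (0.0814), COL1A1 (0.0827), SPNS3 (0.0548) and GAPDH (0.11) lost their calls, while their log2 fold changes were 0.50, 0.39, 0.35, 0.56, 0.62, 0.79 and 0.17 in this order, against 0.52, 0.41, 0.38, 0.61, 0.65, 0.82 and 0.21 with the main scaling. NUPR1, PYCR1, SLC1A5, ADM2 and SLC6A9 held theirs.

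Among genes outside this programme, EIF5AL1 (ENSG00000253626, chromosome 10 from 79512601 to 79516440), a copy of the translation factor gene EIF5A, had the smallest p. It had 5.08, 4.28 and 3.55 CPM with Dox and 3.17, 2.27 and 1.53 CPM without, and rose 1.90-fold (log2 0.93, SE 0.103, FDR 7.66e-05). EIF5A itself was at 828 to 961 CPM with Dox (log2 0.19, FDR 0.121), and reads can be split between near-identical copies, so the value of EIF5AL1 is uncertain. The same holds for ATP5F1EP2, a copy of the ATP synthase gene ATP5F1E, which rose 2.04-fold (0.505 to 0.665 CPM against 0.197 to 0.478 CPM, FDR 0.0201), while ATP5F1E was at log2 0.02 (FDR 0.942). LUZP6, which lies inside an exon of MTPN, rose by 0.59 on the log2 scale (FDR 0.00323), while MTPN was at log2 0.13 (FDR 0.489).

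ANKRD1 (ENSG00000148677, chromosome 10 from 90912096 to 90921276), a target of the YAP-TEAD factors, had 17.8, 22.4 and 21.9 CPM with Dox and 15.3, 16.5 and 11.9 CPM without, and it rose 1.43-fold (log2 0.51, SE 0.0878, FDR 0.00614). It was the member that rose among 26 YAP-TEAD targets, 8 of which were higher (30.8%, against 5.31% of all genes tested) and 0 lower (against 4.08%) at an unadjusted p under 0.05, with a median of 0.08. Without pair 3, ANKRD1 was at log2 0.33 and did not pass. The median of these targets was 0.05, 0.07 and 0.07 in pairs 1 to 3.

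CDC42EP1, an effector of the small GTPase CDC42, had 10.5, 10.9 and 10.5 CPM with Dox and 8.88, 6.91 and 6.13 CPM without, and rose 1.48-fold (log2 0.56, SE 0.0876, FDR 0.00366). OSCAR, a collagen receptor of the immunoglobulin family, rose 1.57-fold from 1.96 to 2.74 CPM without Dox to 3.32 to 4.83 CPM with Dox (FDR 0.00614). VGLL2, a cofactor of TEAD proteins, rose 1.47-fold (1.91 to 2.189 CPM against 1.08 to 1.60 CPM, FDR 0.0359). In these 3 genes the groups did not overlap.

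The largest folds among the genes that rose were at low levels. FAM71D rose 2.24-fold (0.724 to 1.05 CPM against 0.290 to 0.630 CPM, FDR 0.00335), and RELN, which encodes the extracellular glycoprotein reelin, rose 2.02-fold (0.312 to 0.522 CPM against 0.191 to 0.231 CPM, FDR 0.0359). SPNS3 rose 1.76-fold (0.561 to 0.681 CPM against 0.332 to 0.391 CPM, FDR 0.0456). The keratin-associated gene KRTAP2-3 rose 1.62-fold (1.89 to 2.87 CPM against 1.15 to 2.188 CPM, FDR 0.00669), with overlapping groups.

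CCDC85B (ENSG00000175602, chromosome 11 from 65890112 to 65891635), which had the smallest p among the genes that fell, had 17.3, 25.1 and 22.2 CPM with Dox and 24.1, 31.0 and 32.9 CPM without. It fell by 0.45 on the log2 scale (SE 0.0685, FDR 0.00335), with overlapping groups. NOL9 (ENSG00000162408, chromosome 1 from 6521347 to 6554535), a kinase of rRNA processing, had 46.4, 50.4 and 50.1 CPM with Dox and 64.4, 63.2 and 61.4 CPM without, and fell by 0.36 on the log2 scale (SE 0.0618, FDR 0.00614). Here the groups were apart, and the unadjusted p without the pairing was 2.55e-05.

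The chemokine gene CXCL8 (interleukin-8, ENSG00000169429, chromosome 4 from 73740506 to 73743716) had 30.8, 25.5 and 29.8 CPM with Dox and 36.4, 35.9 and 38.3 CPM without. It fell by 0.37 on the log2 scale (SE 0.0663, FDR 0.00912), without overlap. CXCL8 was the member that fell among 25 NF-κB and cytokine genes, 1 of which was higher (4%) and 4 lower (16%) at an unadjusted p under 0.05, against 5.31% and 4.08% of all genes tested. IL17RD, an inhibitor of FGF and MAPK signalling, had 17.2, 9.21 and 6.73 CPM with Dox and 19.6, 13.1 and 13.01 CPM without. It fell by 0.54 on the log2 scale (SE 0.0953, FDR 0.00699), but its groups overlapped, its p without the pairing was 0.108, and without pair 3 it was at log2 −0.35 and did not pass. TPGS1, a subunit of the tubulin polyglutamylase, fell by 0.51 (3.06 to 4.74 CPM against 4.90 to 6.51 CPM, FDR 0.00912).

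EIF3C, a subunit of the translation initiation factor eIF3, had 14.5, 13.4 and 14.5 CPM with Dox and 17.4, 18.4 and 19.3 CPM without, and it fell by 0.38 on the log2 scale (SE 0.0699, FDR 0.0102). Its near-identical copy EIF3CL was at 0.0722 to 0.171 CPM, so the split of reads between them is uncertain. RPL22L1, a variant ribosomal protein, fell by 0.33 (55.4 to 61.6 CPM against 67.2 to 76.2 CPM, FDR 0.0102). NOTCH2NLA, one of several copies of the first part of NOTCH2, fell by 0.38 (FDR 0.0266), while NOTCH2 was at log2 −0.01 (FDR 0.983).

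**Figure D3:**
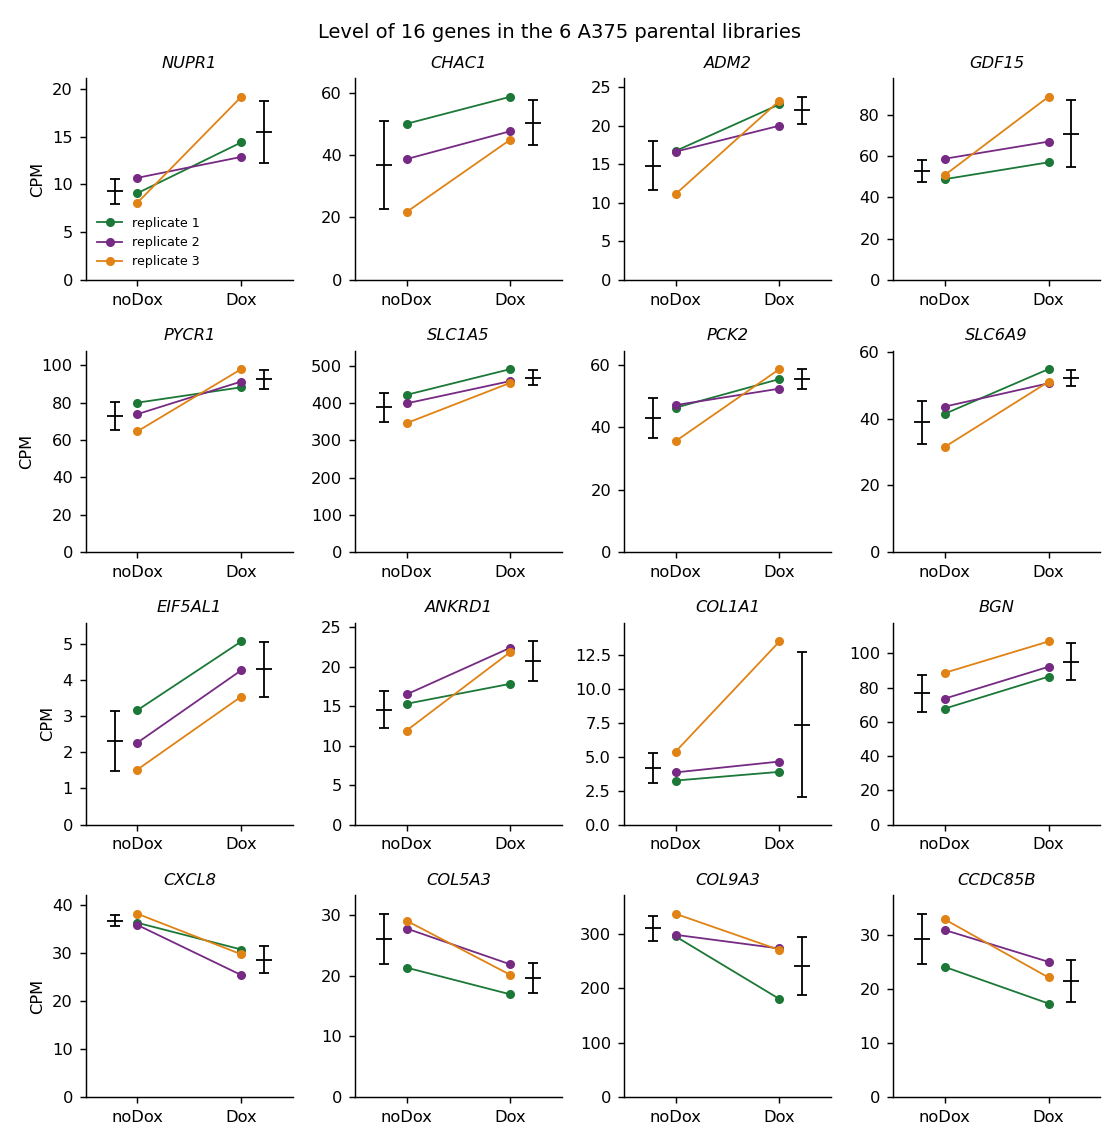
Levels of 16 genes in the 6 A375 parental libraries. The y axis of each panel gives CPM from 0, lines join the noDox and Dox libraries of 1 replicate number, and black bars give the mean and SD of 3 libraries. COL1A1 stands at 13.5 CPM in Dox replicate 3 and at 3.24 to 5.38 CPM in the other 5 libraries, and CHAC1 is lowest in noDox replicate 3 (21.7 CPM).

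Collagen genes moved in both directions. Of 38 tested, 3 fell and 1 rose, against 0.0813% and 0.275% of all genes tested. At an unadjusted p under 0.05, 11 were lower (28.9%, against 4.08% of all genes) and 3 higher (7.89%, near the 5.31% of all genes). Without the pairing, 4 of 38 were lower and 3 higher at that level, against 3.04% and 3.97% of all genes in that fit. Their median log2 fold change was −0.09, and it was −0.26, −0.05 and −0.08 in pairs 1 to 3. COL5A3 (ENSG00000080573, chromosome 19 from 9959561 to 10010471), a chain of fibrillar collagen V, had 16.9, 21.8 and 20.1 CPM with Dox and 21.3, 27.8 and 29.04 CPM without, and fell by 0.40 on the log2 scale (SE 0.0678, FDR 0.00614). COL9A3 had 180, 274 and 271 CPM with Dox and 296, 299 and 338 CPM without, and fell by 0.39 (SE 0.0736, FDR 0.0139), with its lowest value in Dox replicate 1. Without pair 1, COL9A3 was at log2 −0.22 and passed, in a fit where all 57 genes did and 1005 genes passed in all. COL18A1, the source of endostatin, had 28.2, 33.9 and 32.8 CPM with Dox and 40.6, 37.1 and 40.4 CPM without, and fell by 0.32 (SE 0.0708, FDR 0.0475). All 3 share exon positions with a gene on the other strand.

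COL1A1 (ENSG00000108821, chromosome 17 from 50183289 to 50201632), a chain of collagen I, had 3.89, 4.65 and 13.5 CPM with Dox and 3.24, 3.85 and 5.38 CPM without, and rose 1.56-fold (log2 0.65, SE 0.134, FDR 0.0307). Most of this came from Dox replicate 3. Without pair 3 the log2 fold change was 0.27 and the gene did not pass. Other genes of fibroblasts were high in the same library. COL1A2 stood at 2.39 CPM there and at 0.132 to 0.223 CPM in the other 5, COL3A1 at 8.90 CPM against 0.166 to 0.693 CPM, and the matrix protein gene POSTN at 3.74 CPM against 0.0900 to 0.188 CPM (FDR 0.154, 0.129 and 0.0623). LUM (9.67 to 10.8 CPM with Dox and 9.19 to 12.4 CPM without) and PDGFRA (3.03 to 3.66 and 3.15 to 3.70 CPM) overlapped between the groups. The part of fibroblast genes in the change of COL1A1 was not tested.

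The small matrix proteoglycan BGN had 86.4, 92.2 and 107 CPM with Dox and 67.7, 73.6 and 88.7 CPM without. It rose 1.24-fold (log2 0.32, SE 0.0582, FDR 0.0102), and each pair showed a similar step while the groups overlapped. BGN was the member that rose among 55 glycoproteins and proteoglycans of the matrix, 9 of which were higher (16.4%) and 1 lower (1.82%) at an unadjusted p under 0.05, against 5.31% and 4.08% of all genes tested. Of 22 matrix metalloproteinases and TIMPs, 0 passed by edgeR, and 2 were higher and 2 lower at an unadjusted p under 0.05 (9.09% in each direction, against 5.31% and 4.08% of all genes tested). Among these, MMP9 had 0.270, 0.318 and 0.193 CPM with Dox and 0.578, 0.263 and 0.409 CPM without (log2 −0.63, SE 0.243, FDR 0.38).

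Of the 13 mRNAs encoded by mitochondrial DNA, 0 passed by edgeR in either direction. MT-CYB (log2 0.16, FDR 0.296) and MT-ND5 (0.20, FDR 0.333) were higher and MT-ND6 lower at an unadjusted p under 0.05. MT-ND6, the mRNA that is read from the light strand, had 177, 106 and 115 CPM with Dox and 157, 147 and 172 CPM without (log2 −0.29, SE 0.0895, FDR 0.205). Its groups overlapped, and pair 1 went the other way. The log2 fold changes of the remaining 10 lay between −0.07 (MT-CO3) and 0.11 (MT-ATP6). Mitochondrial mRNAs took 3.07% to 3.31% of the counts with Dox and 2.78% to 3.38% without.

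In the lists of nuclear genes for mitochondrial proteins that follow, 0 genes passed. The mitochondrial enzyme PCK2, which rose, is on none of these lists. Counts are at an unadjusted p under 0.05, where 5.31% of all genes tested were higher and 4.08% lower. Of 79 mitochondrial ribosomal proteins, 3 were higher (3.80%) and 7 lower (8.86%), with a median of −0.02. The smallest p was that of MRPL33, which had 68.0, 64.5 and 69.3 CPM with Dox and 76.1, 83.5 and 79.1 CPM without (log2 −0.24, FDR 0.0987). Of 40 factors of mitochondrial gene expression, 0 were higher and 1 was lower, and of 19 mitochondrial chaperones and proteases, 1 was higher and 0 lower. Among the respiratory complexes, complex IV had 3 of 12 subunits higher and 0 lower, led by COX6B1 with 220, 198 and 192 CPM with Dox and 187, 176 and 160 CPM without (log2 0.23, FDR 0.0779). ATP synthase had 4 of 16 higher and 0 lower, complex III had 3 of 9 higher and 1 lower with a median of 0.00, and complex I had 2 of 37 higher (5.41%) and 1 lower (2.703%).

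Cytosolic ribosomal protein genes included 2 of 80 that rose, against 0.275% of all genes tested. At an unadjusted p under 0.05, 18 were higher (22.5%, against 5.31% of all genes) and 4 lower (5%, near the 4.08% of all genes). RPL38 had 474, 417 and 427 CPM with Dox and 376, 362 and 347 CPM without, and rose 1.21-fold (log2 0.28, SE 0.0532, FDR 0.0139). RPS16 had 1055, 977 and 987 CPM with Dox and 875, 849 and 849 CPM without, and rose 1.17-fold (FDR 0.0397). The median of the 80 genes was 0.03, and it was 0.05, 0.00 and 0.06 in pairs 1 to 3. Among 22 glycolysis genes, GAPDH rose 1.16-fold (6475 to 7434 CPM against 5622 to 6275 CPM, FDR 0.0397), and 3 were higher (13.6%) and 0 lower at an unadjusted p under 0.05.

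Metal, iron and antioxidant genes showed no member that passed. Of 18 metal and iron genes, 7 were higher (38.9%) and 0 lower at an unadjusted p under 0.05, and of 28 NRF2 genes, 7 (25%) and 0, against 5.31% and 4.08% of all genes tested. Without the pairing, 3 of 18 and 2 of 28 members of these lists were higher at that level, against 3.97% of all genes in that fit. The metallothionein MT2A had 277, 269 and 249 CPM with Dox and 266, 206 and 208 CPM without (log2 0.23, FDR 0.105), and the ferritin light chain FTL was at log2 0.16 (FDR 0.261). The 2 lists share FTL, FTH1 and HMOX1. SLC7A11, the member of largest rise in the NRF2 list (log2 0.21), is also on the ATF4 list.

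Cell cycle lists had 0 members that passed by edgeR. Of 40 G2/M genes, 2 were higher (5%, near the 5.31% of all genes tested) and 10 lower (25%, against 4.08%) at an unadjusted p under 0.05, among them CDK1 with 100, 91.8 and 94.1 CPM with Dox and 107, 109 and 106 CPM without (log2 −0.17, FDR 0.284). Of 44 G1/S genes, 1 was higher (2.27%) and 3 were lower (6.82%). The thymidine kinase TK1 was at log2 0.18 (FDR 0.225). The 34 replication-dependent histones tested had a median of −0.16, which was −0.39, 0.05 and −0.04 in pairs 1 to 3, with 0 higher and 1 lower. Of 22 melanocyte genes, 1 was higher (MITF, log2 0.17, FDR 0.383) and 0 were lower at an unadjusted p under 0.05.

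In the following lists 0 members passed by edgeR, and counts are at an unadjusted p under 0.05, where 5.31% of all genes tested were higher and 4.08% lower. They were 1 higher and 3 lower (14.3%) of 21 genes of the endoplasmic reticulum stress response, 1 and 1 of 22 hypoxia targets, 3 (12.5%) and 0 of 24 cholesterol synthesis genes, and 0 and 0 of 13 fatty acid synthesis genes. They were 0 and 3 (9.38%) of 32 interferon genes, 1 and 3 (9.68%) of 31 MAPK output genes, 0 and 1 of 38 genes of the PI3K pathway, and 0 and 0 of 40 lysosome genes. They were 1 and 3 (18.8%) of 16 heat shock genes, 3 and 2 of 48 rRNA processing genes, and 0 and 0 of 18 clock genes.

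**Figure D4:**
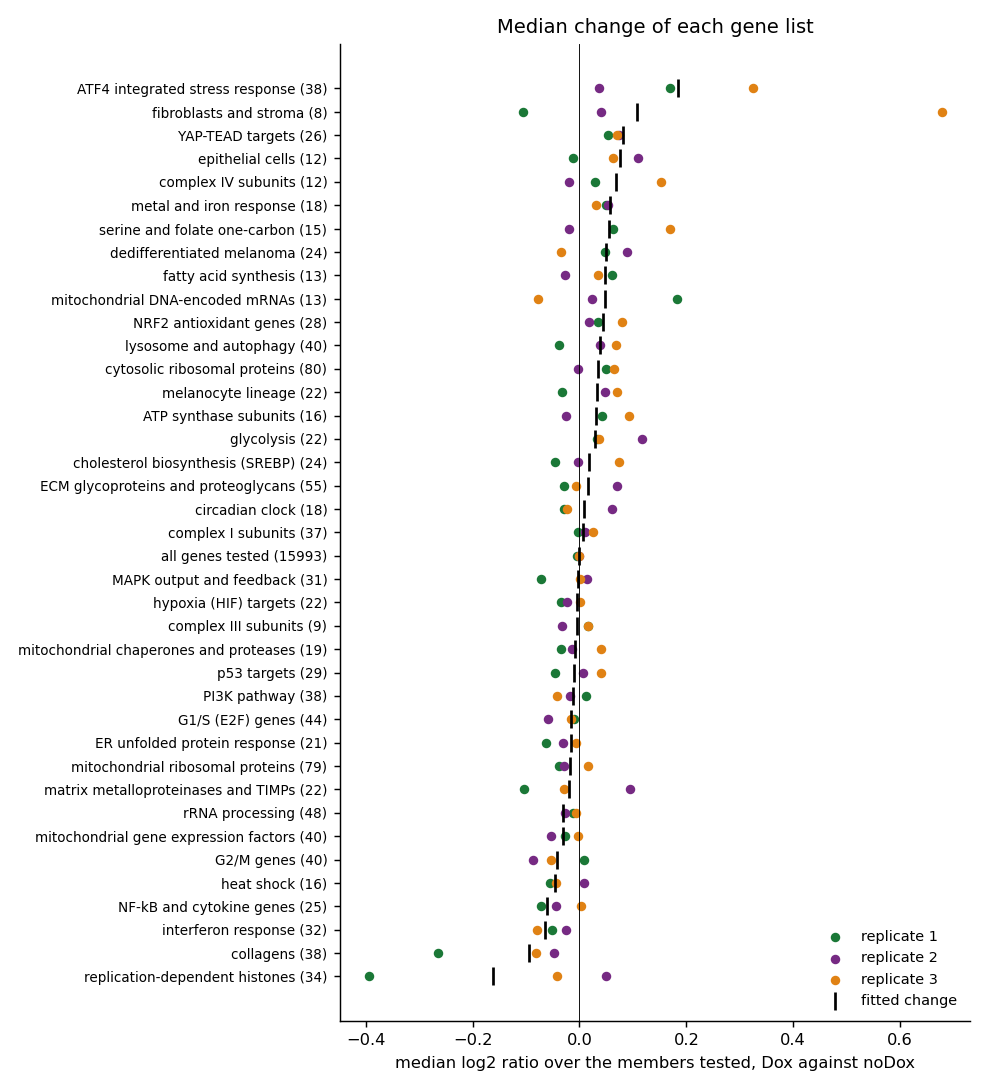
Median change of each gene list with at least 8 tested members. The x axis gives the median log2 ratio of Dox to noDox over the members, coloured points give the 3 replicates, black bars the fitted change, and the number of members stands in brackets. The ATF4 list lies highest (0.19) and the replication-dependent histones lowest (−0.16), and the 3 replicates are spread widely in the fibroblast list (8 genes).

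The same genes were then followed in the shMCM7 cells, which share no library with the parental cells. There, 24.1% of 16087 genes rose and 25.2% fell with Dox at an FDR under 0.05. Of the 57 genes that moved in parental cells, 26 had the same direction in shMCM7 cells, and 14 passed in the same and 14 in the opposite direction. The difference between the effects of Dox in the 2 kinds of cells passed for 42 of the 57 genes. Over all 16334 genes tested it was higher in shMCM7 cells for 16.4% and lower for 19.1%. These shares cannot be set against each other, because the 57 genes were chosen by the parental change, which is itself part of the difference. The library labelled shMCM7 noDox replicate 1 had 130 CPM of MCM7 (scaled over all 24 libraries), against 347 and 354 CPM in replicates 2 and 3. Without that pair, 18 genes passed in the same and 16 in the opposite direction, and the difference passed for 37.

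The ATF4 list went the other way in shMCM7 cells. Its median log2 fold change was −0.31. Of the 38 members, 26 fell and 2 rose, against 25.2% and 24.1% of all genes tested. The difference from parental cells was lower for 28 members and higher for 0, against 19.1% and 16.4% of all genes tested. The parental change of the list is itself part of this difference. Without the pair of replicate 1, 27 members fell, 2 rose, and the difference was lower for 26. The shares over all genes in that fit are not given here. NUPR1 was at log2 −0.11 (FDR 0.563) there, and CHAC1 (−0.71), GDF15 (−1.18) and ADM2 (−0.68) fell, with FDR of 0.000564, 0.000363 and 0.00515. MTHFD2 fell by 1.92 on the log2 scale in shMCM7 cells (FDR 1.62e-06), against a log2 fold change of 0.28 in parental cells. SLC1A5 (−0.17, FDR 0.0673) and PYCR1 (−0.01, FDR 0.967) did not pass.

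Some genes moved in 1 direction in both kinds of cells. KRTAP2-3 was at log2 0.70 in parental and 1.49 in shMCM7 cells, ANKRD1 at 0.51 and 0.27, RELN at 1.01 and 0.60, RPL38 at 0.28 and 0.20, and CXCL8 at −0.37 and −1.18. The difference between the cells passed for KRTAP2-3 (FDR 0.0328) and CXCL8 (8.98e-05), but not for ANKRD1 (0.208), RELN (0.188) and RPL38 (0.366). COL5A3 (−0.40 and −0.29) and RPL22L1 (−0.33 and −0.29) fell in both, with differences of 0.11 (SE 0.124, FDR 0.496) and 0.04 (SE 0.0753, FDR 0.718).

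**Figure D5:**
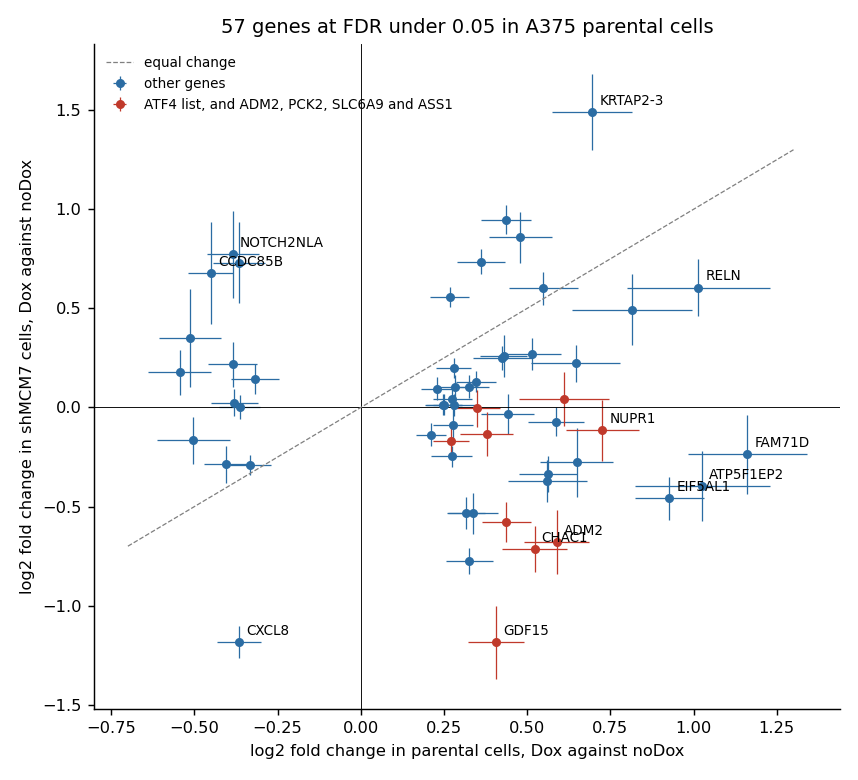
The 57 genes at an FDR under 0.05 in A375 parental cells. The x axis gives the log2 fold change of Dox against noDox in parental cells and the y axis that in shMCM7 cells, bars give 1 SE, and the dashed line marks equal change. Red points are the members of the ATF4 list among them, with ADM2, PCK2, SLC6A9 and ASS1. These are genes that rose in parental cells, so their place to the right of 0 follows from the selection and is no result. Their shMCM7 values run from −1.18 (GDF15) to 0.04 (ASS1).

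In A549 parental cells, 0 of 13494 genes passed by label by edgeR, while 6.48% were higher and 1.99% lower at an unadjusted p under 0.05. The library labelled A549 parental noDox replicate 2 had 90.7 CPM of MCM7 and the other 5 had 318 to 344 CPM, which goes against its label. Labels of A549 shMCM7 libraries went against MCM7 too, with 302 and 339 CPM in Dox replicates 1 and 2 and 101 CPM in noDox replicate 2. The labels of the remaining A549 parental libraries are therefore uncertain as well, and leaving out 1 pair does not settle them. Of the 45 genes measured in this line, 30 had the same direction as in A375, and without the pair of that library it was 34 of 46. Without that pair, the ATF4 list had a median of 0.01 over 37 genes, 24 of which were above 0, and 0 passed. NUPR1 was then at log2 0.24 (FDR 0.961), CHAC1 at 0.33 (0.961), GDF15 at 0.15 (0.961) and CXCL8 at −0.07 (0.973). These libraries were shallower, with 18941785 to 22495593 counts.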

How the data were processed

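RNA of arrested cells was sequenced, and the submitters' processing notes name bcl2fastq 2.19, Trimmomatic, STAR 2.7.1, featureCounts, edgeR and the build GRCh38.p10. The deposited values are raw read counts for 21386 genes per library, of which 21349 were found in GENCODE 29 (GRCh38). Counting and strand settings are not given in the sources used here.

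Groups were taken from the labels, and no library was left out. Counts were tested in R 4.3.3 with edgeR 4.0.16 (TMM factors, the filter filterByExpr, the quasi-likelihood functions glmQLFit and glmQLFTest, and a prior count of 0.125), with Benjamini-Hochberg adjustment over all genes tested. The replicate number was a block. To check it, the departures of each Dox library and of its noDox partner from the means of their groups were correlated across genes, which gave 0.217, 0.0177 and 0.319 in pairs 1 to 3, so that pair 2 did not deviate together, and the labels name no shared batch. Both fits are therefore given. The chi-square per degree of freedom between replicates was at least 22.2, so no library repeats another. The 41 gene lists and the members described were chosen with earlier results of these data known. Named genes were those called at 1.5-fold, those with the largest changes or the smallest p, the leading members of each list, mitochondrial mRNAs and MCM7, and others are said to be chosen after their values were seen, or serve as partners of a named gene. Steps were tested on simulated data. Alternatives were other size factors, DESeq2 1.42.0, a likelihood ratio test, other filters, a prior count of 10, glmTreat, GC content offsets, a fit of 12 libraries and leaving out libraries.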

Additional observations from a re-analysis of the deposited data

Results flagged for a closer look

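The effect of Dox differed between A375 shMCM7 and parental cells, by a test of the difference itself, for 25 of the 34 named genes that passed in parental cells (edgeR's quasi-likelihood test, FDR under 0.05). These genes were chosen by their parental change, which is also subtracted in the difference, so that their number and the direction of the differences are a description and no evidence that the genes as a group differ. Values are the log2 fold change in shMCM7 cells minus that in parental cells. Among genes of the ATF4 list, ADM2 and ASS1, all of which had risen in parental cells, the differences were NUPR1 (−0.84), CHAC1 (−1.24), GDF15 (−1.59), SLC1A5 (−0.44), ADM2 (−1.27) and ASS1 (−0.57). The differences of further genes were EIF5AL1 (−1.39), LUZP6 (−0.66), FAM71D (−1.40), CDC42EP1 (−0.90), OSCAR (−0.92), CXCL8 (−0.82), BGN (−0.85), ATP5F1EP2 (−1.43), VGLL2 (−0.93) and GAPDH (−0.35). Of these, CXCL8 had fallen in both kinds of cells. The differences above 0 were CCDC85B (1.13), NOL9 (0.36), KRTAP2-3 (0.79), IL17RD (0.72), TPGS1 (0.87), EIF3C (0.40), COL9A3 (0.60), NOTCH2NLA (1.16) and COL18A1 (0.46). Of these, KRTAP2-3 had risen in both, while the others had fallen in parental cells. In shMCM7 cells the shRNA is induced as well, so that Dox and the knock-down cannot be told apart.

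These differences were also taken without the shMCM7 pair of replicate 1, whose noDox library was low in MCM7. TPGS1 was then at 0.37 (FDR 0.114) and did not pass. CCDC85B was at 0.63 (FDR 0.0106), NOTCH2NLA at 0.74 (FDR 0.00262) and KRTAP2-3 at 1.21 (FDR 2.85e-05). The other differences named above passed there too. Groups of 3 libraries are too small for a test of single libraries that stand apart.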

How the results depend on the processing

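All 57 genes that passed had the same direction under each alternative that was run. They were chosen in these same libraries and moved in 1 direction in all 3 pairs, so this was to be foreseen and is no support. The number of genes that passed depended strongly on the setting. In the fit with the replicate block, 44 genes were higher and 13 lower at an FDR under 0.05, and 12 higher and 0 lower at 1.5-fold. Without the replicate block, these counts were 0 and 0, and 0 and 0. With no block and 1 library left out, they were 0 to 2 and 0, and 0 to 1 and 0, where only the fit without Dox replicate 3 gave any (2 at an FDR under 0.05, 1 of them at 1.5-fold). With the block and the likelihood ratio test of edgeR, 103 and 40 genes passed, and 22 and 3 at 1.5-fold. With no filter on low counts, 130 and 50 passed, and 27 and 1 at 1.5-fold. With at least 10 counts in every library, 54 and 18 passed, and 12 and 1 at 1.5-fold. In the fit of all 12 A375 libraries, which share 1 estimate of the spread, 1 and 0 passed, and the same at 1.5-fold. With glmTreat against a 1.5-fold change, 0 and 0 passed. With GC content offsets, 152 and 81 passed, and 8 and 1 at 1.5-fold. With the Wald test of DESeq2, 63 and 20 passed, and 3 and 0 at 1.5-fold. Of the 57 genes of the main fit, 41 were among them. NUPR1, CHAC1, GDF15, ADM2, ASS1, ANKRD1, IL17RD, LUZP6, FAM71D, COL1A1, RELN, VGLL2, ATP5F1EP2 and SPNS3 did not pass by DESeq2. PYCR1, SLC1A5, SLC6A9 and PCK2 did pass. The size factors of DESeq2 gave 40 and 12, and the prior count of 10 changed no count at an FDR under 0.05. Without replicates 1, 2 and 3 in turn, the genes that rose numbered 15 to 614, those that fell 1 to 391, and those at 1.5-fold 7 to 53 and 0 to 12. The highest counts came without replicate 1 and the lowest without replicate 3. The causes of these shifts were not tested. Without pair 3, CHAC1 was at log2 0.27 and GDF15 at 0.21.

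Of the genes measured in shMCM7 cells, 14 passed in the same and 14 in the opposite direction, and 11 and 12 without the replicate block. Leaving out each pair of shMCM7 cells gave 10 to 18 and 11 to 17, a setting chosen after seeing the data. In A549, 0 passed in the same direction by label, and 0 to 2 without each replicate in turn. The median of the ATF4 list lay between 0.07 and 0.25 under all alternatives. In all 6 parental libraries, 3 counts stood at 0.0205 CPM or less, and 3 pairs were available to estimate the spread.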
